A study of Mus musculus with 18 samples.

Results

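The MYC network is represented here by 8 genes, Myc, Mycn, Max, Mga, Mnt, Mxd1, Mxd3 and Mxd4, taken by their symbols from the 23329 genes counted in each library. All 8 were among the 11942 genes that had enough reads to be tested, Mycn through its wild-type libraries alone. The libraries are RNA-seq of FDH cells, which are BALB/c mouse fetal liver cells from E14.5 embryos of the bc-/- bIL-3-/- background, immortalised and used at passages 10 to 12. Both lines were transduced with bc, the signalling chain of the IL-3 receptor, so the reconstituted bc is shared by all 6 groups. The 3 groups of the first line carried IL3Ra with the change P248L (the Site 4 mutant of the series title), and the 3 groups of the second carried wild-type IL3Ra. Untreated cells stood in growth medium with doxycycline and 100 ng/ml mouse SCF. The others had 2 or 5 days in 100 ng/ml IL-3, in a medium for which neither doxycycline nor SCF is listed. Each group had 3 libraries, and the labels do not say that these were separate cultures, so p-values measure the spread between these libraries, which may be technical. There was 1 line per receptor, so the receptor and any other difference between the lines cannot be told apart, and neither can IL-3 and the change of medium.

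MYC and MYCN are transcription factors that bind the E-box CACGTG as heterodimers with MAX and activate genes of ribosome production, metabolism and the cell cycle. MAX is also the partner of MXD1, MXD3, MXD4 and MNT, which bind the same DNA and recruit SIN3 and histone deacetylases to repress it. MGA is a large factor that pairs with MAX within the variant Polycomb complex PRC1.6. In blood cells, MYC is known for its high level in dividing progenitors, and MXD1 for its rise as myeloid cells mature.

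Promoters are shown for the 3 members whose window holds the E-box that the network binds, and for Cdk4, a known MYC target and the kinase of cyclin D. Each runs from 250 bases before to 50 bases after the RefSeq gene start on GRCm38.p6, 5′ to 3′ on the gene's strand, with CACGTG in capitals.
Max, chr12:76962199-76962498 (minus strand): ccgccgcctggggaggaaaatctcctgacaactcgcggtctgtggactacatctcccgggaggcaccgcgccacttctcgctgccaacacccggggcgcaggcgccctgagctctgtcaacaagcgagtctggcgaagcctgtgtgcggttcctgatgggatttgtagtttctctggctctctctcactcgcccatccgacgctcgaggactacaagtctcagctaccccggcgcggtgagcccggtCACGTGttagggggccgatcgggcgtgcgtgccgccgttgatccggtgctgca
Mnt, chr11:74830674-74830973 (plus strand): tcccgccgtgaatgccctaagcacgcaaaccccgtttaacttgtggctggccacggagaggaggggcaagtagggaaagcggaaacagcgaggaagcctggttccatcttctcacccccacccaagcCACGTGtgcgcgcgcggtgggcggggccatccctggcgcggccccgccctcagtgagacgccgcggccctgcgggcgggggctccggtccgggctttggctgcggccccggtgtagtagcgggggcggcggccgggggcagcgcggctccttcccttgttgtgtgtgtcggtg
Mxd4, chr5:34187661-34187960 (minus strand): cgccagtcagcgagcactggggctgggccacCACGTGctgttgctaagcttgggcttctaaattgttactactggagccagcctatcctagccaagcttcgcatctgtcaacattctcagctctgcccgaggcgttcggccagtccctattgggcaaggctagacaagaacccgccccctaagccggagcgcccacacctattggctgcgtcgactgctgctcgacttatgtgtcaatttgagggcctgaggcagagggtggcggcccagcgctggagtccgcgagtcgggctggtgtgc
Cdk4, chr10:127063285-127063584 (plus strand): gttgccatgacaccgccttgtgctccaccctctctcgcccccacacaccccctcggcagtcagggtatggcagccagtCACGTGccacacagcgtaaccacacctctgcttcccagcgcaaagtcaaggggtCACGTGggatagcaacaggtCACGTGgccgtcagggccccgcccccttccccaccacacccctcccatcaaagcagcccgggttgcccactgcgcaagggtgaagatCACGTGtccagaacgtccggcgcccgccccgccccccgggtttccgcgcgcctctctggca
The E-box lies 3 bases before the start of Max, 123 before that of Mnt and 219 before that of Mxd4. Cdk4 has 4 E-boxes. RefSeq promoters were matched for 7 of the 8 members, Myc being the exception, and 3 of these 7 (42.9%) held CACGTG, a palindrome that reads alike on both strands. Over all 32851 promoters in that table the share was 7.15%. For comparison, the motif was in 5 of 22 promoters (22.7%) of a list of MYC targets of ribosome biogenesis and in 0 of 15 of a list of S phase and mitosis genes. It was in 10 of 31 (32.3%) of a list of MYC targets of metabolism and growth, which holds Cdk4. The other lists used below ran from 8.33% (MYC turnover) to 25% (wider network genes). The gapped STAT motif TTCNNNGAA, also a palindrome, was in 0 of the 7 members' promoters and in 8.30% of all. A match describes letters in this window and is not a bound site.

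Depth was 13.8 to 27.2 per library, in units of 1e6 reads in genes. The label of the cells was checked against markers. The 6 progenitor markers found in the files (Kit, Cd34 and others) summed to 7188 to 9293 CPM (counts per 1e6 reads in genes, scaled by TMM factors) in untreated P248L cells and 8481 to 9279 CPM in untreated wild-type cells. Hepatocyte markers summed to 0.153 to 14.3 CPM over the 18 libraries, nearly all of it Afp, and Alb, Ttr and Apob had 0 reads in every library. Neutrophil markers (7 genes such as Ltf and S100a8) summed to 3.84 to 7.70, 96.6 to 172 and 28044 to 40310 CPM in P248L cells untreated and at days 2 and 5. In wild-type cells the sums were 68.1 to 104, 14936 to 18462 and 9129 to 14695 CPM at the same times. The 6 macrophage markers found summed to 14166 to 19527 CPM in P248L and 33197 to 41566 CPM in wild-type cells at day 5, and to at most 654 CPM in any earlier library. Nearly all of the day 5 sum was Lyz2, at means of 16616 CPM in P248L and 36326 CPM in wild-type cells. Cd68 (348 and 927 CPM) and Mrc1 (38.5 and 485 CPM) were also lower in P248L at day 5. Csf1r was at 223 CPM in P248L and 203 CPM in wild-type cells, and C1qa and C1qb had at most 2 reads in any group. Progenitor markers summed to 5197 to 9192 CPM in P248L and 2815 to 3335 CPM in wild-type cells at day 2, and to 1548 to 1708 CPM in P248L and 1158 to 1290 CPM in wild-type cells at day 5. Untreated and day 2 sums were mainly Mpo, and day 5 sums mainly Ptprc (means of 1207 CPM in P248L and 1105 CPM in wild-type cells). Ptprc was lower untreated (341 CPM in P248L and 362 CPM in wild-type cells). Kit, Cd34, Flt3, Mpo and Hoxa9 had lower means at day 5 than untreated in both lines. The 6 mast cell and basophil markers summed to 300.4 to 320.4 CPM in P248L and 891 to 1215 CPM in wild-type cells at day 2, and to 37.3 to 60.1 CPM in P248L and 2067 to 3058 CPM in wild-type cells at day 5. Nearly all of the wild-type day 5 sum was Cpa3, at a mean of 2552 CPM against 577 CPM untreated. In the same cells Mcpt8 went down from 19.8 CPM untreated to 1.38 CPM at day 5, and Gata2 from 78.3 to 51.4 CPM. Fcer1a, Ms4a2 and Prss34 had means of at most 0.815 CPM at these 2 times. Marker sums thus differed between the groups by time and line, and in bulk RNA fewer cells of a type and less RNA per cell cannot be told apart. The part of these marker differences in the results that follow was not tested. Among P248L libraries, untreated library 1 and day 2 library 3 stood furthest from their group. Their chi-square per degree of freedom against the other libraries of the group was 93.2 to 200.3, whereas all other pairs in the series ran from 4.86 to 37.3. Calls of members that change without these 2 libraries are given with and without them.

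Myc, on the plus strand of chr15:61985391-61990374 (GRCm38, GENCODE M21, as for all members), fell in both lines by day 5 and fell further in wild-type cells. P248L cells had 570, 426 and 316 CPM untreated, 544, 364 and 495 CPM at day 2, and 123, 121 and 91.0 CPM at day 5. Wild-type cells had 360, 357 and 332 CPM untreated, 285, 218 and 261 CPM at day 2, and 39.0, 35.9 and 37.4 CPM at day 5. Every day 5 library lay below every earlier library of its line, and at days 2 and 5 every P248L library lay above every wild-type library of that day. In P248L cells at day 5 Myc was 3.91-fold lower than in untreated cells (log2 fold change −1.97 ± 0.20 SE, edgeR quasi-likelihood test, Benjamini-Hochberg adjusted p = 7.8e-08). In wild-type cells it was 9.34-fold lower (−3.22 ± 0.21, edgeR adjusted p = 1.7e-10). The difference between these day 5 responses, P248L minus wild-type, was 1.25 ± 0.27 (edgeR adjusted p = 0.0022).

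At day 2 the Myc values of treated and untreated P248L cells overlapped (log2 fold change 0.10 ± 0.19, edgeR adjusted p = 0.72). The day 2 wild-type libraries all lay below the untreated ones, at −0.46 ± 0.19 and an edgeR adjusted p of 0.058. This p was 0.016 without the 2 P248L libraries that stood apart, and 0.0018 when only the wild-type groups compared were fitted. The difference of the day 2 responses did not pass (0.56 ± 0.27, edgeR adjusted p = 0.21), but was 0.79 (edgeR adjusted p = 0.041) without P248L untreated library 1. Set line against line, Myc in P248L cells exceeded wild-type 1.84-fold at day 2 (0.88 ± 0.19, edgeR adjusted p = 0.0015) and 2.98-fold at day 5 (1.58 ± 0.20, edgeR adjusted p = 3.8e-06). The untreated lines overlapped (0.32 ± 0.19, edgeR adjusted p = 0.22, but 0.53 and adjusted p = 0.026 without P248L library 3).

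**Figure D1:**
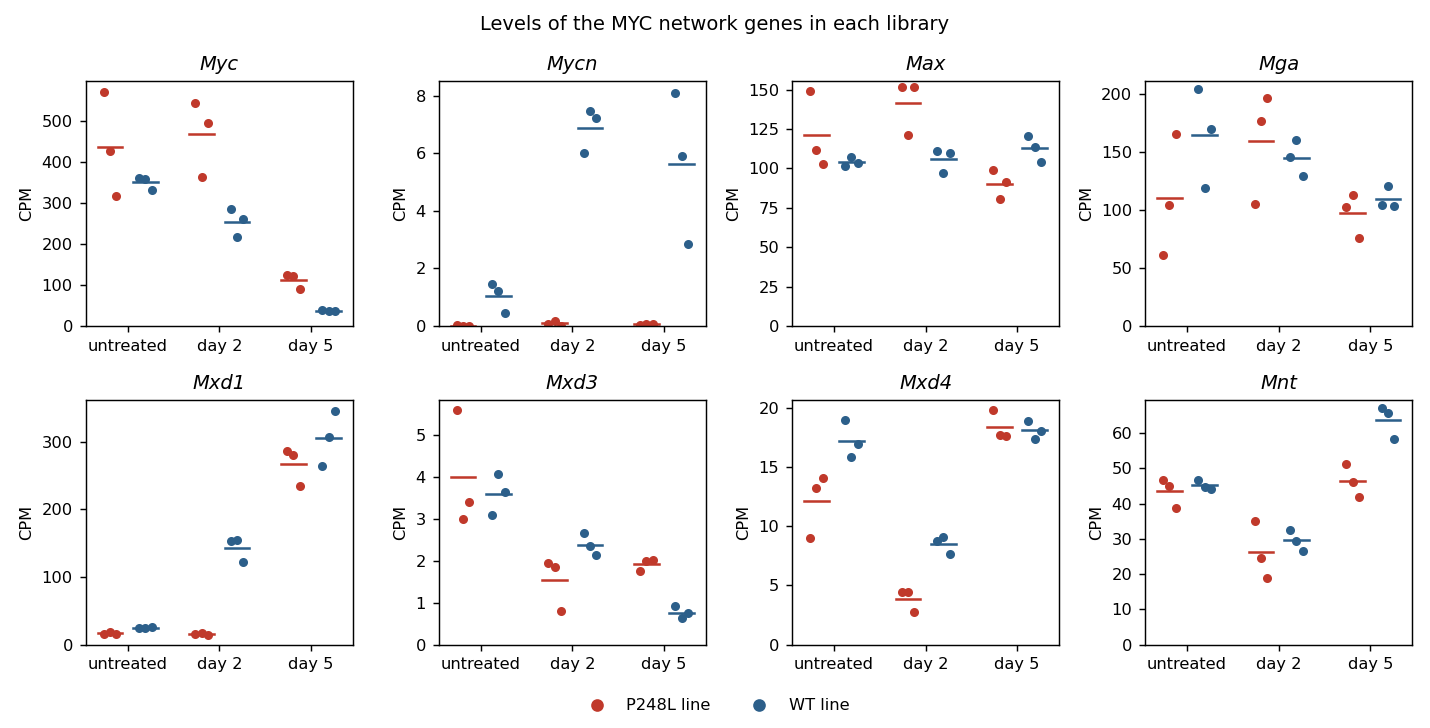
CPM (linear axes, each from 0) of the 8 genes in every library: points are libraries, short lines are means of 3, with P248L left of wild-type at each time. Mxd1 is at 14.6 to 16.9 CPM in the day 2 P248L libraries and at 123 to 154 CPM in the day 2 wild-type libraries, while Myc is lowest at day 5 in both lines.

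Mycn, at chr12:12936093-12941914 on the minus strand, encodes the paralog of MYC that is best known from neural and early progenitor cells. In P248L cells it was nearly silent, with 1, 0 and 0 reads untreated, 2, 3 and 0 at day 2 and 1 in each library at day 5. Wild-type cells had 1.44, 1.20 and 0.444 CPM untreated, 6.01, 7.46 and 7.21 CPM at day 2, and 8.10, 5.91 and 2.86 CPM at day 5. No P248L library reached the lowest wild-type library of any day. In wild-type cells the rise was 2.74 ± 0.38 at day 2 (edgeR adjusted p = 1.6e-05) and 2.46 ± 0.39 at day 5 (edgeR adjusted p = 1.8e-05), as log2 fold changes. Summed over libraries, 1 read in untreated P248L cells stood against 70 in wild-type, a ratio of rates 74.4-fold lower in P248L with a 95% counting interval of 12.9 to 2978. At day 2 it was 5 reads against 406, or 73.7-fold lower (31.3 to 228), and at day 5 it was 3 against 279, or 96.6-fold lower (32.7 to 471). The intervals cover counting error only. The difference between the lines passed edgeR's test at each time (adjusted p = 0.00012, 1.6e-07 and 2.3e-07). Mycn passed the low-count filter only through wild-type libraries, so these p-values are no independent support for the difference. With so few reads in P248L no comparison of the 2 responses could be read. The line difference was there before IL-3 was added.

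Max, at chr12:76937269-76962201 on the minus strand, encodes the shared partner, and its group means spanned only 1.57-fold. P248L cells had 149, 111 and 103 CPM untreated, 152, 121 and 152 CPM at day 2, and 99.1, 80.8 and 91.4 CPM at day 5. Wild-type cells had 102, 107 and 104 CPM untreated, 111, 97.3 and 110 CPM at day 2, and 120, 113 and 104 CPM at day 5. In P248L cells the day 5 libraries lay below all earlier ones, and the change from untreated was −0.42 ± 0.14 (edgeR adjusted p = 0.012). Without the 2 P248L libraries that stood apart it was −0.24 (edgeR adjusted p = 0.059), leaving out untreated library 1 alone gave −0.24 (edgeR adjusted p = 0.087), and leaving out day 5 library 2 alone gave −0.35 (edgeR adjusted p = 0.060). With only the 2 groups compared in the fit, the edgeR adjusted p was also 0.087. In wild-type cells Max had a log2 fold change of 0.02 ± 0.14 at day 2 and 0.11 ± 0.14 at day 5, the second turning to −0.33 without TMM scaling. Max was higher in P248L than in wild-type cells at day 2 (0.42 ± 0.14, edgeR adjusted p = 0.026), a call lost with only the groups of that day in the fit (adjusted p = 0.055) and without wild-type day 2 library 2 (adjusted p = 0.081), P248L day 2 library 1 (adjusted p = 0.055) or library 3 (adjusted p = 0.071). At day 5 the P248L libraries lay below all wild-type ones, at −0.32 ± 0.14 (edgeR adjusted p = 0.074), which passed under 6 of the alternatives, among them without the 2 P248L libraries that stood apart (edgeR adjusted p = 0.013). The difference of the day 5 responses of Max was −0.53 ± 0.20 (edgeR adjusted p = 0.054), and it passed under 11 of the alternatives. Without those 2 libraries it was −0.35 (edgeR adjusted p = 0.080). In P248L cells at day 2 against untreated Max was at 0.22 ± 0.14 (edgeR adjusted p = 0.21), or 0.35 without those 2 libraries (edgeR adjusted p = 0.031).

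Mxd1, at chr6:86647042-86669161 on the minus strand, encodes the antagonist MXD1 (MAD1), and it separated the lines at day 2 more than any member other than Mycn. P248L cells had 15.99, 18.7 and 15.1 CPM untreated, 16.2, 16.9 and 14.6 CPM at day 2, and 286, 280 and 235 CPM at day 5. Wild-type cells had 25.1, 24.7 and 25.5 CPM untreated, 153, 154 and 123 CPM at day 2, and 265, 308 and 346 CPM at day 5. The P248L values at day 2 overlapped the untreated ones, whereas each wild-type library at day 2 was above every untreated one. At day 5 the lines overlapped. In P248L cells the log2 fold change from untreated was −0.06 ± 0.14 at day 2 (edgeR adjusted p = 0.77) and 4.01 ± 0.15, or 16.1-fold, at day 5 (edgeR adjusted p = 1.6e-13). In wild-type cells Mxd1 rose 5.71-fold by day 2 (2.51 ± 0.14, edgeR adjusted p = 1.0e-10) and 12.2-fold by day 5 (3.61 ± 0.14, edgeR adjusted p = 2.9e-13).

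The day 2 responses of Mxd1 differed between the lines by −2.57 ± 0.19, P248L minus wild-type (edgeR adjusted p = 2.1e-07), and by −2.46 to −2.66 with any 1 library left out. The day 5 responses differed by 0.40 ± 0.19 (edgeR adjusted p = 0.13). In level, Mxd1 was 8.99-fold lower in P248L than in wild-type cells at day 2 (−3.17 ± 0.14, edgeR adjusted p = 1.7e-11) and 1.51-fold lower untreated (−0.59 ± 0.13, edgeR adjusted p = 0.0041). At day 5 the difference was −0.20 ± 0.13 (edgeR adjusted p = 0.23). The neutrophil marker sums given above had the same order at day 2, with 96.6 to 172 CPM in P248L and 14936 to 18462 CPM in wild-type cells, and the progenitor marker sums had the opposite order. At day 5 the neutrophil sums were higher in P248L (28044 to 40310 CPM) than in wild-type cells (9129 to 14695 CPM), while the Mxd1 levels of the lines overlapped. The part of these markers in the Mxd1 differences was not tested.

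Mxd4, at chr5:34173883-34187720 on the minus strand, and Mnt, at chr11:74830920-74845725 on the plus strand, encode antagonists that are broadly expressed, and both dipped at day 2 in both lines. Mxd4 had 9.01, 13.2 and 14.0 CPM in P248L cells untreated, 4.47, 4.43 and 2.72 CPM at day 2, and 19.8, 17.7 and 17.6 CPM at day 5. In wild-type cells Mxd4 had 18.9, 15.8 and 16.9 CPM untreated, 8.71, 9.07 and 7.68 CPM at day 2, and 18.8, 17.3 and 18.03 CPM at day 5. At day 2 it was below every untreated library in both lines. The log2 fold change at day 2 was −1.62 ± 0.19 in P248L (edgeR adjusted p = 4.7e-06) and −1.02 ± 0.18 in wild-type cells (edgeR adjusted p = 0.00018). By day 5 Mxd4 in P248L cells had passed its untreated level (0.61 ± 0.18, edgeR adjusted p = 0.0053, but 0.37 and adjusted p = 0.12 without TMM scaling), and in wild-type cells it was at 0.07 ± 0.18 (edgeR adjusted p = 0.73).

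Mxd4 was 2.16-fold lower in P248L than in wild-type cells at day 2 (−1.11 ± 0.19, edgeR adjusted p = 0.00021). The untreated difference of −0.51 ± 0.18 passed narrowly (edgeR adjusted p = 0.047) and was lost with 15 of the 18 libraries left out one at a time, with P248L untreated library 1 left out giving −0.34 (edgeR adjusted p = 0.20). Without both P248L libraries that stood apart it was −0.34 (edgeR adjusted p = 0.051). The difference of the day 2 responses was −0.60 ± 0.26 (edgeR adjusted p = 0.17), and −0.59 without those 2 libraries (edgeR adjusted p = 0.041). Its exons share 514 bases with an antisense transcript, Gm42846. The other strand held at most 5 reads of Mxd4 in any library.

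Mnt had 46.8, 44.9 and 38.9 CPM in P248L cells untreated, 34.9, 24.6 and 18.9 CPM at day 2, and 51.3, 46.1 and 41.9 CPM at day 5. In wild-type cells Mnt had 46.6, 44.7 and 44.2 CPM untreated, 32.6, 29.4 and 26.7 CPM at day 2, and 67.1, 65.8 and 58.4 CPM at day 5. The day 2 libraries lay below all others of their line. Against untreated cells the day 2 log2 fold change was −0.73 ± 0.17 in P248L (edgeR adjusted p = 0.0025) and −0.61 ± 0.17 in wild-type cells (edgeR adjusted p = 0.0067). With only the 2 groups compared in the fit, the P248L value had an edgeR adjusted p of 0.092. At day 5 it was 0.09 ± 0.17 in P248L (edgeR adjusted p = 0.64) and 0.50 ± 0.17 in wild-type cells (edgeR adjusted p = 0.013, but 0.06 and adjusted p = 0.78 without TMM scaling). Mnt was lower in P248L than in wild-type cells at day 5 (−0.46 ± 0.17, edgeR adjusted p = 0.034), a call lost without TMM scaling (−0.34, adjusted p = 0.16) and without 4 libraries in turn. These were wild-type day 5 libraries 1 and 2 (edgeR adjusted p = 0.099 and 0.088) and P248L day 5 libraries 2 and 3 (edgeR adjusted p = 0.081 and 0.12).

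Mxd3, at chr13:55325168-55329823 on the minus strand, encodes an antagonist that is known from dividing cells, and it was scarce, with 11 to 149 reads per library. P248L cells had 5.59, 2.98 and 3.39 CPM untreated, 1.94, 1.85 and 0.809 CPM at day 2, and 1.76, 1.99 and 2.01 CPM at day 5. Wild-type cells had 3.08, 4.06 and 3.64 CPM untreated, 2.66, 2.35 and 2.14 CPM at day 2, and 0.914, 0.625 and 0.748 CPM at day 5. Alone among the 4 antagonist genes, Mxd3 had a lower mean at day 5 than untreated in both lines. It fell in P248L cells by day 2 (−1.34 ± 0.28, edgeR adjusted p = 0.0012) and at day 5 (−1.06 ± 0.28, edgeR adjusted p = 0.0024). In wild-type cells it fell by day 5 (−2.23 ± 0.32, edgeR adjusted p = 5.2e-06), with −0.59 ± 0.27 at day 2 (edgeR adjusted p = 0.085). The day 2 value passed under 5 of the alternatives, with an edgeR adjusted p of 0.0071 without the 2 P248L libraries that stood apart and 0.015 with only the 2 groups compared in the fit. With only the 2 groups compared in the fit, the day 2 fall in P248L cells had an edgeR adjusted p of 0.052. At day 5 Mxd3 was 2.50-fold higher in P248L than in wild-type cells (1.32 ± 0.34, edgeR adjusted p = 0.0039), with no overlap. The difference of the day 5 responses was 1.17 ± 0.43 (edgeR adjusted p = 0.051), and 1.51 (edgeR adjusted p = 0.00085) without the 2 P248L libraries that stood apart. Mxd3 shares 105 exonic bases with Prelid1 on the opposite strand, and 84.4 to 98.4% of the reads assigned to Mxd3 on either strand were on the other strand. The strand-specific counts used here leave these out.

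Mga, at chr2:119897228-119969581 on the plus strand, encodes a protein that joins MAX to PRC1.6, and it varied more between replicates than any member other than Mycn, with a coefficient of variation of 47.5% in untreated P248L cells. P248L cells had 61.3, 105 and 166 CPM untreated, 105, 177 and 197 CPM at day 2, and 102, 113 and 76.1 CPM at day 5. Wild-type cells had 204, 119 and 170 CPM untreated, 146, 161 and 130 CPM at day 2, and 105, 121 and 104 CPM at day 5. The groups overlapped in all comparisons except wild-type day 5 against day 2, where the log2 fold change was −0.40 ± 0.29 (edgeR adjusted p = 0.22, and 0.0012 with only those 2 groups in the fit). In wild-type cells at day 5 against untreated it was −0.58 ± 0.29 (edgeR adjusted p = 0.079). That value passed under 6 of the alternatives, among them without the 2 P248L libraries that stood apart (edgeR adjusted p = 0.021). The only call in the fit of all groups, P248L day 5 against day 2 (−0.72 ± 0.29, edgeR adjusted p = 0.036), rested on overlapping groups. Without the 2 P248L libraries that stood apart it was −0.54 (edgeR adjusted p = 0.053), and it was also lost without P248L day 2 library 2 (adjusted p = 0.071) or 3 (adjusted p = 0.15) or day 5 library 1 (adjusted p = 0.063) or 3 (adjusted p = 0.14). With the replicate number as a block in P248L untreated and day 2 cells alone, where the numbers passed the pairing check, day 2 was above untreated by 0.60 (edgeR adjusted p = 0.039), against 0.53 ± 0.29 (edgeR adjusted p = 0.16) without the block. Without untreated P248L library 3 the same comparison gave 0.96 (edgeR adjusted p = 0.0089). The block was chosen after seeing the data. Wild-type day 2 and P248L day 5, which share neither line nor day, passed the pairing check too.

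The longest Mga transcript has 13931 bases, and the 241 other tested genes with transcripts over 10 kb moved with it between replicates. In untreated P248L library 1 these genes had a median deviation of −0.43 from the group mean on the log2 scale, and Mga one of −0.74. In untreated P248L library 3 the values were 0.37 and 0.70. The sign of the 2 deviations was shared in all but 1 library, wild-type day 5 library 3. What part this has in the Mga results was not tested.

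**Figure D2:**
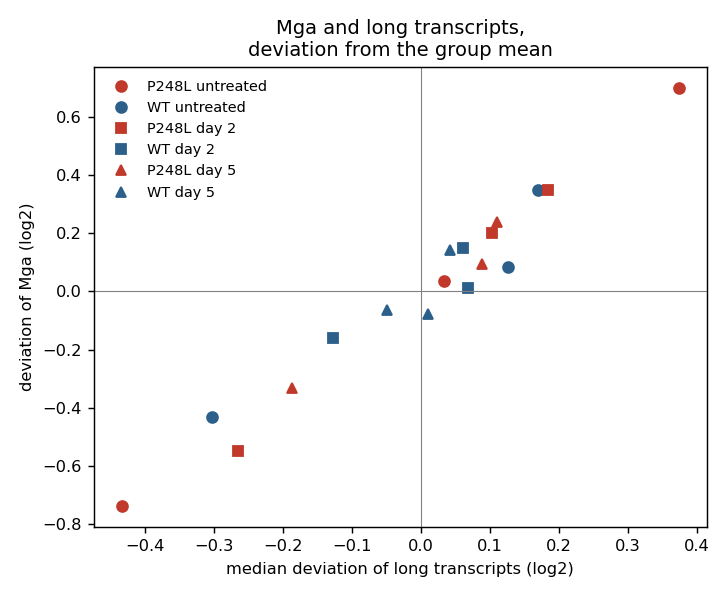
Deviation of Mga from its group mean (log2, vertical) against the median deviation of the 241 other genes with transcripts over 10 kb (log2, horizontal), 1 point per library. The points run from −0.43 and −0.74 to 0.37 and 0.70, both ends being untreated P248L libraries.

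Counted over the 8 members, 3 fell (Mxd3, Mxd4 and Mnt) and 0 rose in P248L cells at day 2 against untreated, where edgeR called 39.9% of all tested genes, 21.4% as falling and 18.5% as rising. In wild-type cells at day 2, Mycn and Mxd1 rose and Mxd4 and Mnt fell, with 43.7% of all tested genes called, 22.0% as rising and 21.7% as falling. At day 5 against untreated, 5 members were called in P248L cells (background 71.0%), of which Mxd1 and Mxd4 rose (background 34.8%) and Myc, Max and Mxd3 fell (background 36.2%). In wild-type cells 5 were called (background 73.0%), of which Mycn, Mxd1 and Mnt rose (background 35.7%) and Myc and Mxd3 fell (background 37.3%). Set against day 2, 6 were called at day 5 in P248L (background 70.1%), where Mxd1, Mxd4 and Mnt rose (background 37.1%) and Myc, Max and Mga fell (background 33.0%). In wild-type cells 5 were called at day 5 against day 2 (background 70.6%), where Mxd1, Mxd4 and Mnt rose (background 36.0%) and Myc and Mxd3 fell (background 34.6%). These shares lie near their background, so the counts are no result about the members as a group.

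Between the lines, 3 members were lower in untreated P248L cells (Mycn, Mxd1 and Mxd4) and 0 higher, where 21.5% of all tested genes were called, 11.3% as lower and 10.3% as higher. At day 2, 5 were called (background 35.6%), with Myc and Max higher in P248L (background 15.3%) and Mycn, Mxd1 and Mxd4 lower (background 20.3%). At day 5, 4 were called (background 45.4%), with Myc and Mxd3 higher in P248L and Mycn and Mnt lower (background 22.7% for each direction). The difference of responses at day 2 was called for Mxd1 alone, as lower in P248L (1 of 8, background 9.43%, of which 6.44% lower and 2.99% higher). At day 5 it was called for Myc alone, as higher in P248L (1 of 8, background 26.7%, of which 14.6% higher and 12.1% lower). The calls of Mycn between the lines carry the filter limit given above.

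**Figure D3:**
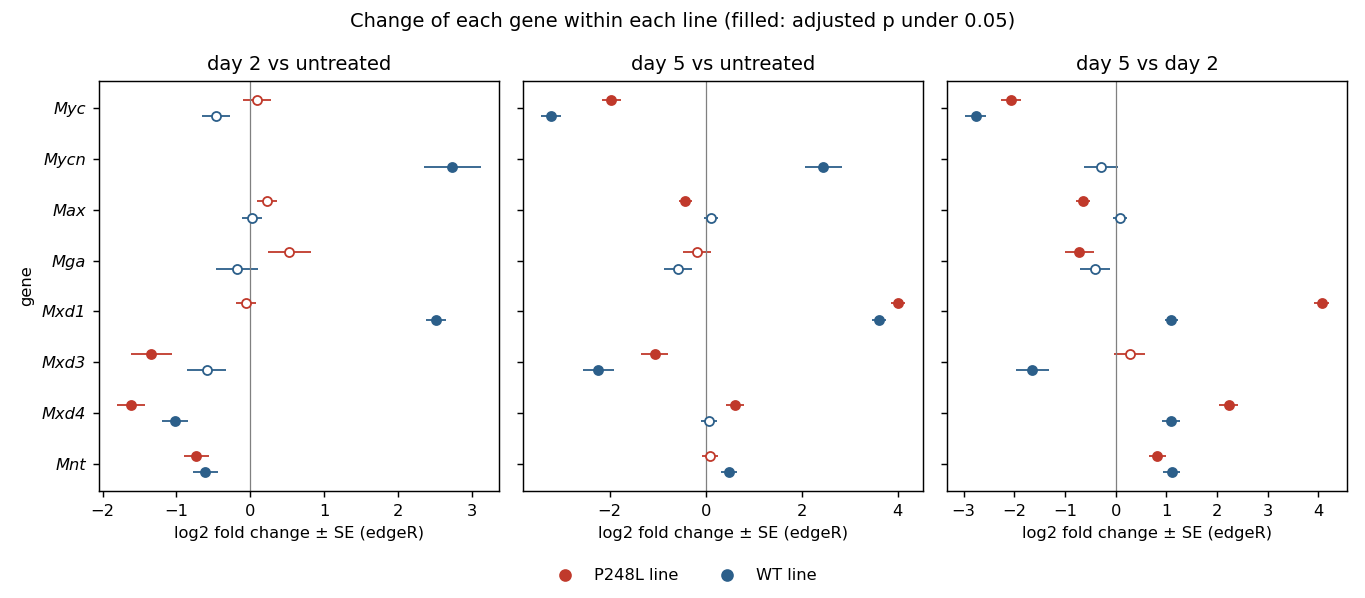
Log2 fold change with its SE (edgeR) for each gene, within P248L (red, upper) and within wild-type cells (blue, lower). Filled points have an adjusted p under 0.05, and P248L values of Mycn are left out because they rest on 1 to 5 reads per group. Mxd1 is at −0.06 in P248L and 2.51 in wild-type cells at day 2 against untreated, and at 4.07 in P248L and 1.10 in wild-type cells at day 5 against day 2.

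Per length of transcript, levels can be set side by side between genes. In untreated cells Myc had the highest level, at 187 ± 54.5 CPM per kb in P248L and 149.6 ± 6.44 CPM per kb in wild-type cells (SD, n = 3 each). Max followed at 62.4 ± 12.8 CPM per kb in P248L and 53.7 ± 1.49 CPM per kb in wild-type cells. Mxd1, at 3.55 ± 0.400 CPM per kb in untreated P248L and 5.37 ± 0.083 CPM per kb in untreated wild-type cells, reached 57.2 ± 5.98 CPM per kb in P248L and 65.6 ± 8.69 CPM per kb in wild-type cells at day 5. At day 5 the means of Mxd1 by this length thus stood above those of Myc, at 47.8 ± 7.69 CPM per kb in P248L and 16.03 ± 0.666 CPM per kb in wild-type cells. In P248L this order depends on the length used. With summed exon length (7072 bases for Mxd1 and 2717 for Myc), the P248L mean of Mxd1 lay below that of Myc. In wild-type cells the order stayed.

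The sum of Myc and Mycn per kb was divided by the sum of Mxd1, Mxd3, Mxd4 and Mnt per kb, as a description of RNA and without a test. Mxi1, the gene of a further antagonist, is not among the members and is not in this sum. Untreated P248L cells had ratios of 13.0, 9.93 and 8.10, P248L cells at day 2 had 17.7, 14.1 and 25.5, and P248L cells at day 5 had 0.679, 0.689 and 0.604. Untreated wild-type cells had 7.21, 7.38 and 6.84, wild-type cells at day 2 had 2.87, 2.24 and 3.26, and wild-type cells at day 5 had 0.260, 0.208 and 0.187. At each time the P248L libraries lay above all wild-type libraries, and both lines were below 1 at day 5. The day 2 means moved apart, to 19.1 ± 5.80 in P248L and 2.79 ± 0.513 in wild-type cells (SD, n = 3 each), against untreated means of 10.3 ± 2.47 in P248L and 7.14 ± 0.279 in wild-type cells. With summed exon length in place of the longest transcript, the day 2 means were 19.8 in P248L and 3.38 in wild-type cells.

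The makeup of the antagonist sum also shifted. Mxd1 made up 18.3 to 21.8% of it in untreated P248L cells, 26.3 to 37.8% at day 2 and 78.1 to 80.0% at day 5. In wild-type cells its share was 25.1 to 26.2% untreated, 75.1 to 77.3% at day 2 and 74.7 to 81.3% at day 5. Mnt held the largest share in untreated cells, at 50.8 to 54.3% in P248L and 46.2 to 47.5% in wild-type cells. Mycn made up at most 0.0603% of the activator sum in any P248L library and 6.26 to 15.4% of it in wild-type cells at day 5, when Myc itself was lowest.

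**Figure D4:**
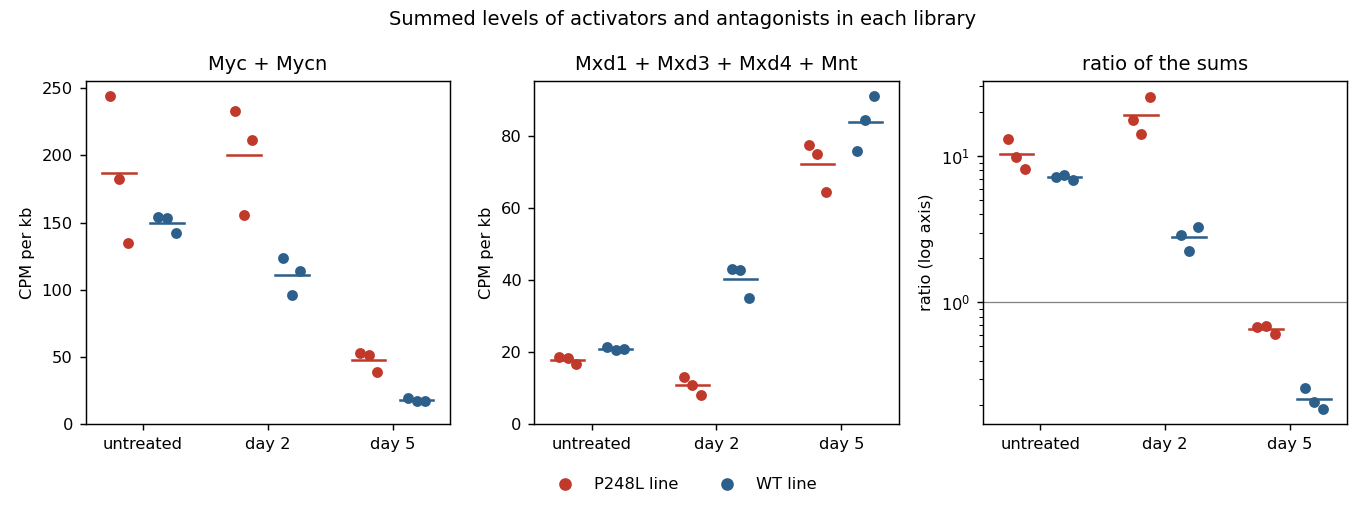
Summed levels per kb of Myc and Mycn (left, linear), of the 4 antagonist genes (middle, linear) and their ratio (right, log axis), with points for libraries and lines for means of 3, P248L left of wild-type. At day 2 the ratio is 14.1 to 25.5 in P248L and 2.24 to 3.26 in wild-type libraries, and at day 5 all 6 libraries lie below 1.

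Other parts of the network were followed through lists of genes known to act with it. Of 3 tested genes of the wider network, all rose by day 5 in both lines, where 34.8% of all tested genes rose in P248L and 35.7% in wild-type cells, and 36.2% fell in P248L and 37.3% in wild-type cells. They were Mxi1, the gene of the antagonist MXI1 (2.31 ± 0.12 in P248L, edgeR adjusted p = 1.3e-11, and 1.31 ± 0.12 in wild-type, edgeR adjusted p = 1.3e-08), Mlxip and Mlx, which encode a pair of glucose-responsive factors. Without TMM scaling 3 rose in P248L and 1 in wild-type cells. The day 5 response of Mxi1 was larger in P248L by 1.01 ± 0.16 (edgeR adjusted p = 0.00017). At day 2 Mxi1 was at 37.5 CPM in P248L and 80.4 CPM in wild-type cells (−1.10 ± 0.12, edgeR adjusted p = 7.5e-07). Like Mxd1 and Mxd4, Mxi1 was thus lower in P248L at that time.

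Of 12 tested MYC cofactors, 2 rose and 6 fell by day 5 in P248L, and 1 rose and 7 fell in wild-type cells. Among all tested genes, 34.8% rose and 36.2% fell in P248L, and 35.7% rose and 37.3% fell in wild-type cells. Their median log2 fold change was −0.48 in P248L, against −0.02 over all tested genes, and −0.66 in wild-type cells, against −0.05 over all. Ruvbl1, an ATPase of chromatin remodelling, averaged 13.4 CPM at day 5 and 67.6 CPM untreated in P248L (−2.33 ± 0.11), and 10.9 CPM at day 5 and 68.2 CPM untreated in wild-type cells (−2.65 ± 0.11). Of 10 genes of MYC protein turnover, 1 rose and 4 fell in P248L and 2 rose and 7 fell in wild-type cells at day 5. The shares of all tested genes were 34.8% rising in P248L, and 35.7% rising and 37.3% falling in wild-type cells. The 1 rise in P248L became 3 without P248L untreated library 1, and the 4 of 10 that fell there are near the 36.2% of all tested genes. Line against line at day 5, 4 of the 10 turnover genes were higher in P248L and 1 lower (median 0.26). Over all tested genes, 22.7% were called in each direction. The largest difference was that of Aurka, a mitotic kinase that also stabilises MYCN protein. It was at 43.3 CPM in P248L and 15.3 CPM in wild-type cells (2.83-fold higher in P248L, edgeR adjusted p = 5.0e-07). Of 10 corepressor genes that MXD and MNT proteins use, 8 fell and 0 rose in P248L (36.2% of all tested genes fell) and 7 fell and 0 rose in wild-type cells (37.3% fell) at day 5. The P248L count was 5 when only the 2 groups compared were fitted, and the wild-type count was 5 with DESeq2 or its size factors. Rbbp7, a histone-binding subunit, had −1.84 ± 0.11 in P248L and −2.29 ± 0.11 in wild-type cells. Of 9 genes of the MGA complex PRC1.6, 6 fell and 1 rose in P248L and 6 fell and 0 rose in wild-type cells at day 5, against the same shares of all tested genes. Among those that fell was Pcgf6 (−1.98 ± 0.15 in P248L and −2.10 ± 0.16 in wild-type cells). The 1 rise in P248L was lost in the majority of the fits with 1 library left out.

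Known MYC targets of ribosome biogenesis, 24 genes, fell as a group by day 5, a direction known from earlier results of these libraries and so no independent support. In P248L cells 24 of 24 fell (median log2 fold change −2.06), and in wild-type cells 23 of 24 (median −2.20). Over all tested genes, 36.2% fell in P248L and 37.3% in wild-type cells. Line against line at day 5, 12 of 24 were higher in P248L and 1 lower (median 0.39), with 22.7% of all tested genes called in each direction. The largest difference was that of Dkc1, the pseudouridine synthase of ribosomal RNA. It was at 54.1 CPM in P248L and 16.7 CPM in wild-type cells (1.70 ± 0.18, edgeR adjusted p = 7.4e-07). The difference of the day 5 responses was called as higher in P248L for 3 and lower for 1 (median 0.06). Over all tested genes these shares were 14.6% and 12.1%. The 3 ranged from 2 to 9 over the alternatives. At day 2 against untreated the list went the other way from its fall by day 5. In P248L 18 of 24 rose and 0 fell (median 0.50), and in wild-type cells 10 of 24 rose and 0 fell (median 0.23). Over all tested genes, 18.5% rose in P248L and 22.0% in wild-type cells at day 2. The first count was 20 without the 2 P248L libraries that stood apart, 10 with the replicate block and 5 when only the 2 groups compared were fitted. The second was 6 without wild-type day 2 library 3. Myc itself had no called rise at day 2 in either line.

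Set line against line at day 2, 17 of the 24 were higher and 0 lower in P248L (median 0.54), where 15.3% of all tested genes were higher. An example is Wdr43, at 725 CPM in P248L and 312 CPM in wild-type cells (1.21 ± 0.12, edgeR adjusted p = 4.9e-07). The difference of the day 2 responses was called, as higher in P248L, for 1 of the 24, Nop56 (0.55 ± 0.14, edgeR adjusted p = 0.018), where 2.99% of all tested genes were. That count was 8 with DESeq2, 4 without scaling and 0 with only the 4 groups compared in the fit or without the low-count filter. It was 6 without P248L day 2 library 1 and 4 without P248L untreated library 3.

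The list of MYC targets of metabolism and growth, 27 tested genes, had 22 falling and 3 rising by day 5 in P248L and 21 falling and 2 rising in wild-type cells, against 36.2% of all tested genes falling in P248L and 37.3% in wild-type cells. The 3 rises in P248L were 5 without P248L untreated library 1. At day 5, 15 of the 27 were higher in P248L than in wild-type cells and 2 lower (median 0.76), with 22.7% of all tested genes called in each direction. The number lower was 0 without P248L day 5 library 1 or wild-type day 5 library 1, and 4 without the 2 P248L libraries that stood apart. Slc7a5, an amino acid transporter, was at 194 CPM in P248L and 41.4 CPM in wild-type cells at day 5 (2.23 ± 0.19, edgeR adjusted p = 4.2e-08). Shmt2, the mitochondrial serine hydroxymethyltransferase, was at 118 CPM in P248L and 29.2 CPM in wild-type cells (2.02 ± 0.24, edgeR adjusted p = 2.5e-06). The difference of the day 5 responses was called as higher in P248L for 12 of the 27 and as lower for 3 (median 0.40). Over all tested genes these shares were 14.6% and 12.1%. With 1 library left out, the number higher ran from 8 to 13 and the number lower from 1 to 5. Hspe1, a mitochondrial chaperonin, was the lowest of the list (difference −1.48 ± 0.38, edgeR adjusted p = 0.0076).

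S phase and mitosis genes, 16 tested, fell by day 5 in 15 cases in each line, with medians of −1.51 in P248L and −2.47 in wild-type cells. The shares of all tested genes that fell were 36.2% in P248L and 37.3% in wild-type cells. At day 5, 14 of 16 were higher in P248L than in wild-type cells and 0 lower, where 22.7% of all tested genes were higher. Mcm6, a subunit of the replicative helicase, was at 204 CPM in P248L and 56.8 CPM in wild-type cells (1.85 ± 0.14, edgeR adjusted p = 6.4e-09). The difference of the day 5 responses was positive and called for 11 of 16, against 14.6% of all tested genes.

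Of 8 genes that MYC is known to repress, 8 rose by day 5 in P248L (median 2.41) and 7 in wild-type cells (median 1.89), where 34.8% of all tested genes rose in P248L and 35.7% in wild-type cells. Cdkn1a, the inhibitor p21 of cyclin-dependent kinases, was at 561 CPM at day 5 and 73.2 CPM untreated in P248L (2.94 ± 0.22), and at 368 CPM at day 5 and 33.1 CPM untreated in wild-type cells (3.47 ± 0.23). At day 2 the 8 genes did not move together, with 2 rising and 4 falling in P248L (18.5% and 21.4% of all tested genes) and 3 rising and 2 falling in wild-type cells (22.0% and 21.7%). The 4 falling in P248L were 2 when only the 2 groups compared were fitted. The day 2 response of Cdkn1a was smaller in P248L by 1.88 on the log2 scale (difference −1.88 ± 0.29, edgeR adjusted p = 0.00034). Ndrg1, a gene of growth arrest, was at 508 CPM in P248L and 160 CPM in wild-type cells at day 5 (1.67 ± 0.18, edgeR adjusted p = 9.7e-07), whereas Cdkn1c, the inhibitor p57, was at 3.11 CPM in P248L and 17.8 CPM in wild-type cells (−2.50 ± 0.29, edgeR adjusted p = 1.8e-06).

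**Figure D5:**
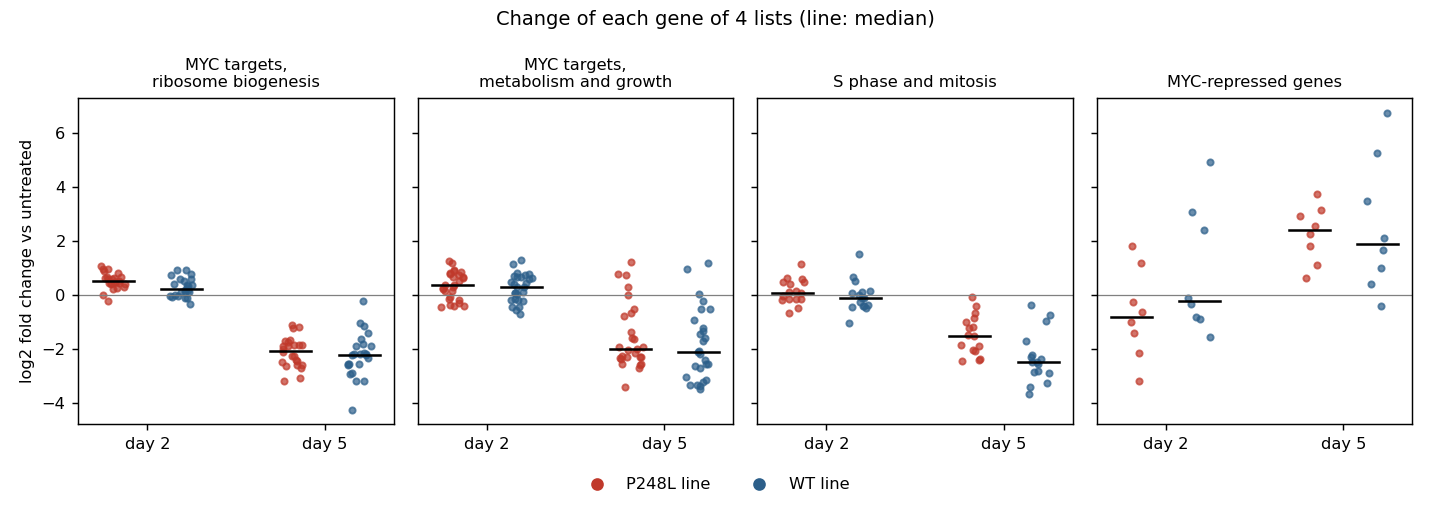
Log2 fold change against untreated of each tested gene of 4 lists at days 2 and 5 (points spread sideways at random), P248L (red) left of wild-type (blue), with a black line at the median. At day 5 the ribosome biogenesis medians are −2.06 in P248L and −2.20 in wild-type cells, and the S phase and mitosis medians are −1.51 in P248L and −2.47 in wild-type cells.

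The members' patterns over the 18 libraries were compared by Pearson's correlation of log2 CPM, a description of libraries that share 6 groups. Mxd1 ran opposite to Myc (r = −0.86), Mxd4 with Mnt (r = 0.85) and Mxd3 with Myc (r = 0.70). Among 9574 genes of sufficient level, the patterns most like that of Myc were those of Bzw2, Exosc8 and Plac8 (r = 0.985 each). Those most like Mxd1 were 6430548M08Rik, Sqrdl and Padi4 (r = 0.991, 0.990 and 0.989). Those most like Mycn were Ckap4, Lrrk2 and Cd24a (r = 0.979, 0.955 and 0.945). Mnt was nearest to Tpra1 (r = 0.973), Mxd4 to Trim68 (r = 0.967), Mga to Dcp2 (r = 0.963), Mxd3 to Cenpt (r = 0.933) and Max to Idh3b (r = 0.923). The names depend on the measure: with Spearman's correlation, 0 of the 3 nearest genes were shared for Myc and Mxd1, and at most 1 for any member.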

How the data were processed

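RNA was taken from 6 groups of 3 libraries, grouped by line and time as the labels give them. STAR and the build mm10 are named in the submitters' processing notes, without a version, while the sources used here do not give the annotation behind the counts. The authors' deposited values are raw read counts per gene, on both strands and on each strand. The counts of the strand that held most reads were used; the other held 1.17 to 2.54% of reads in genes, and 27.9 to 38.1% of reads fell in no single gene. All per-sample columns belonged to this series.

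Genes were filtered with filterByExpr (minimum count 10) and scaled with TMM factors. All 18 libraries entered 1 fit, with a mean for each group, by edgeR 4.0.16 (R 4.3.3), with robust quasi-likelihood F tests and Benjamini-Hochberg adjustment over the 11942 tested genes of each of the 11 contrasts, at a threshold of 0.05. "Rose", "fell" and "called" mean an adjusted p under it. SEs were derived from the log2 fold change and F. CPM are TMM-scaled counts per 1e6 reads, per kb of the longest GENCODE M21 transcript where stated, and log2 CPM used a prior count of 2. The test was tried on simulated counts. Promoters came from RefSeq (GRCm38.p6). Plots used matplotlib 3.10.9.

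The members and gene lists were chosen with earlier results of these data known. The 8 members are always named; from each list and contrast, some of up to 3 called genes of largest fold whose groups do not overlap are named (overlap was not considered for differences of responses). Alternatives were DESeq2 1.42.0, limma-voom (limma 3.58.1), DESeq2 size factors, no scaling, no filter, both strands, only the compared groups, a replicate block, 2 P248L libraries left out and each library left out; a fit without robust estimation and a block in P248L untreated and day 2 alone were chosen after seeing the data. Among the compared groups the replicate numbers passed the pairing check (each same-number correlation of deviations over 0.1) only in P248L untreated and day 2 cells, at 0.460, 0.175 and 0.348. Wild-type day 2 and P248L day 5, which were not compared and share neither line nor day, also passed, at 0.290, 0.111 and 0.213. The labels do not state what a number marks, so the pairing of P248L untreated and day 2 cells rests on the counts alone.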

Additional observations from a re-analysis of the deposited data

Results flagged for a closer look

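The day 2 responses of Mxd1 differed between the lines, with a difference of −2.57 on the log2 scale, P248L minus wild-type (edgeR test of the difference, adjusted p = 2.1e-07). In level, every P248L library at day 2 was below every wild-type one.

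The day 5 responses of Myc differed by 1.25 on the log2 scale, P248L minus wild-type (edgeR test of the difference, adjusted p = 0.0022). With any 1 library left out, the difference was 1.03 to 1.49.

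Mxd3 had 304 to 1741 reads on the strand opposite to the one counted, 304 in the lowest library. These were 84.4 to 98.4% of the sum of its counts on each strand. The deposited count that ignores strand is lower than that sum. In untreated wild-type library 1 it was 51, with 62 on the strand used and 405 on the other. Over whole libraries the opposite strand had 1.17 to 2.54% of the reads. Mxd3 shares 105 exonic bases with Prelid1, which lies on that strand, and the part of this overlap in the reads was not tested.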

How the results depend on the processing

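Values are counted as unchanged where they kept their side of the threshold, and those that passed in neither fit may have changed direction. For example, Mga in P248L cells at day 5 against untreated, at −0.19, reached 0.17 with 1 library left out. A value is counted as reversed where its direction changed and either fit passed. Over 8 members, 11 contrasts and 18 libraries left out one at a time, 1530 values were unchanged, 26 newly passed and 28 no longer passed. Over the other alternatives the numbers were 845, 28 and 14, and 1 reversed, Max at day 5 against untreated in wild-type cells, at −0.33 without TMM scaling (edgeR adjusted p = 0.021). Without scaling the median of all genes moved to −0.49 in that contrast, and in the others that moved by over 0.1 to −0.17 (wild-type day 2), −0.25 (wild-type day 5 against day 2), −0.12 (P248L day 2), −0.25 (P248L day 5), 0.14 (P248L against wild-type at day 5) and 0.25 (difference of day 5 responses). The share of calls that were rises was then 34.3% at P248L day 2 (46.3% with TMM), 36.0% at wild-type day 2 (50.4%), 34.4% at wild-type day 5 (48.9%), 40.5% at wild-type day 5 against day 2 (51.0%), 35.9% between untreated lines (47.6%) and 72.6% for the difference of day 5 responses (54.7%).

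The number of members called for the difference of day 5 responses, 1 as reported, was 2 with DESeq2, with DESeq2 size factors, with both strands, with the compared groups alone and without the 2 P248L libraries that stood apart, and 3 without scaling and with the replicate block. For the difference of day 2 responses, 1 as reported, it was 2 without those 2 libraries. For P248L day 2 against untreated, 3 as reported, it was 1 with the compared groups alone. The cause was not tested, except that the compared groups alone leave fewer samples.

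With each library left out in turn, members called ranged from 1 to 3 for both differences of responses. Against untreated they were 3 to 4 (P248L day 2), 4 to 6 (wild-type day 2), 4 to 5 (P248L day 5) and 5 to 6 (wild-type day 5). They were 5 to 6 for P248L and 5 to 5 for wild-type from day 2 to day 5, and between lines 2 to 5 untreated, 4 to 5 at day 2 and 3 to 5 at day 5. Where the replicate numbers only share a number, the block took members called to 5 at wild-type day 2 and to 2 between untreated lines. Depth limits Mycn in P248L cells, where a library with 0 reads allows up to 3 reads, or 0.0983 to 0.221 CPM.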
